A study of Mus musculus with 4 samples.

Results

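Tcf7-positive alpha beta T cells of EO771 mammary tumors were selected on measured UMI counts, as the sorted leukocytes that held at least 1 unique molecular identifier (UMI, the tag that marks 1 captured transcript) of Tcf7 and at least 1 UMI of Cd3d, Cd3e or Cd3g. Cells with a UMI of Trdc, the gamma delta T cell receptor chain, or of Foxp3, the factor of regulatory T cells, were left out. Cells with 300 or more UMIs of S100a8 and S100a9 per 10000, with 20 or more UMIs of C1qa, C1qb and C1qc per 10000, or with UMIs of both Mki67 and Top2a were also left out, since these genes mark neutrophils, macrophages and dividing cells. This left 1352 cells, which were 4.76% of the 28429 cells that the authors kept and 24.2% of the 5596 T cells that passed the same gates with any number of Tcf7 UMIs. The other 4244 of these T cells, with 0 Tcf7 UMIs, are called Tcf7-negative.

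Tcf7 (mm10 chromosome 11, 52252371 to 52283014, minus strand) encodes TCF-1, a DNA-binding protein of the TCF/LEF family that partners with beta-catenin and with Groucho/TLE corepressors. It is required for T cell development, is high in naive and central memory T cells, and falls as T cells become effectors. In tumors and chronic infection, CD8+ T cells that keep TCF-1 include a stem-like progenitor of exhausted cells, which renews itself and gives rise to cytotoxic and terminally exhausted progeny.

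The cells came from 4 female C57BL/6 mice, 2 Csf1rfl/fl and 2 Lyve1CreCsf1rfl/fl, with EO771 cells, a mouse mammary carcinoma line, grown in the mammary fat pad. All 4 mice carried floxed Csf1r, the receptor that macrophages need for survival, and the Lyve1CreCsf1rfl/fl mice also carried Cre under the Lyve1 promoter, which deletes Csf1r in cells that have expressed Lyve1. Whether any T cell carried the deletion was not measured. CD45+ leukocytes were sorted, and in each of 2 Chromium runs 1 tumor per genotype was loaded together, with hashtag antibodies to separate them, so that replicate numbers 1 and 2 are the runs. The question of the comparison between genotypes was how immune cells of the tumor differ when Lyve1-expressing macrophages are depleted. Values for single tumors are given in the order Csf1rfl/fl replicate 1, Csf1rfl/fl replicate 2, Lyve1CreCsf1rfl/fl replicate 1 and Lyve1CreCsf1rfl/fl replicate 2. A level is the sum of a gene's UMIs per 10000 UMIs of the class of cells in that tumor.

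The hashtag barcodes are shown because, with the run, they tie a cell to a tumor.
Csf1rfl/fl replicate 1 and Lyve1CreCsf1rfl/fl replicate 2: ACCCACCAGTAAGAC
Lyve1CreCsf1rfl/fl replicate 1 and Csf1rfl/fl replicate 2: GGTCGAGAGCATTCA
The barcodes were swapped between the runs, so genotype did not go with a barcode.

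Klra6 and Klra7, genes of the Ly49 receptors best known from natural killer (NK) cells, were among the genes with the largest rise in Tcf7-positive cells, and TCF-1 is known to act on a gene of this family in NK cells. Their 250 bases upstream of the start (RefSeq, GRCm38.p6) are shown because, of the 9 genes with the largest rise that have a promoter in the RefSeq table, these were the 2 with the searched form of the TCF/LEF motif. Capitals mark this form. Other forms of the motif were neither searched nor marked, so a gene without this form may hold another.
Klra6, chr6:130026955-130027204, minus strand: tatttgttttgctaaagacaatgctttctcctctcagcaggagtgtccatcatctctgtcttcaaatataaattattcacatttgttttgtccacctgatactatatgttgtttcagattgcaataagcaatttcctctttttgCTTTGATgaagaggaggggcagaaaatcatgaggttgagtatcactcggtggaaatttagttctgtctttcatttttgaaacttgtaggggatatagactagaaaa
Klra7, chr6:130233323-130233572, minus strand: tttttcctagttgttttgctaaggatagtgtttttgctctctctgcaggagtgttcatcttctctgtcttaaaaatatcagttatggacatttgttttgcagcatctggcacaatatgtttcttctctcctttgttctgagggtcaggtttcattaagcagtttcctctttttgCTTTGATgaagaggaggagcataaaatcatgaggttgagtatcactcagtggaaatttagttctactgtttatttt
The motif searched was CTTTGAT, or ATCAAAG on the other strand, and it began 106 bases before the start in Klra6 and 76 bases before it in Klra7. The shares that follow count a match anywhere in a promoter of the table, which also holds some bases after the start, and in any promoter of a gene. It was found in 4.29% of all genes with a promoter in the table and in 2.98% of the genes tested in all T cells. Of those higher in Tcf7-positive cells 4.47% (18 of 403) held it, and of those lower 2.77% (11 of 397). The searched form was in 0 of the 17 genes with a promoter among those of the naive and memory list described below with Tcf7 added. A match is a stretch of letters and not a measured binding site. Ly49 genes are near-identical copies, so their counts may be split or shared between members.

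The selected cells are described by their markers and by the limits of the gates. A UMI of Trac, Trbc1 or Trbc2, the constant chains of the alpha beta receptor, was found in 93.6% of the 1352 cells. The share in other cells is not given. The median cell held 6 Cd3 UMIs, while 154 cells (11.4%) held exactly 1. A Cd3 UMI was required by the gate, so these Cd3 counts are no independent support. Just inside and outside the neutrophil limit, cells had 294.5 and 301.2 UMIs of S100a8 and S100a9 per 10000, and at the C1q limit 19.9 and 20.2. Of the 2151 kept cells with Cd3 and Tcf7 UMIs, the Trdc, Foxp3, neutrophil, C1q and cycling limits took out 212, 159, 101, 81 and 369, some of them by more than 1 limit. Another 1000 kept cells had Tcf7 but no Cd3 UMI and passed the other gates. No barcode sequence of a Tcf7-positive cell was shared between the runs, while 200 were shared over all 53361 barcodes.

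Single UMIs made up much of the signal. Among the 1352 cells, 628 (46.4%) held 1 Tcf7 UMI, 345 held 2 and 379 held 3 or more, and the median cell of these classes had 3969.5, 4415 and 5401 UMIs in all, against 3893.5 in Tcf7-negative cells. A Tcf7 UMI was also found in 1.43% to 1.77% of neutrophils across the 4 tumors, at median depths of 1849 to 2807 UMIs, and in 1.99% to 5.56% of macrophages, both taken without cells holding a Cd3 UMI and both of types that should lack the gene. Chosen without regard to Cd3 the shares were 2.34% to 4.70% of neutrophils and 3.51% to 20.2% of macrophages, the highest being 23 of 114 macrophages in Lyve1CreCsf1rfl/fl replicate 2, of which 19 also held a Cd3 UMI. It was found in 4.24% to 15.3% of Foxp3-positive T cells, in 15.6% to 37.7% of NK cells and in 42.2% to 67.4% of Trdc-positive T cells. NK cells here were kept cells with at least 1 Ncr1 UMI and no Cd3 UMI that met the neutrophil, C1q and cycling limits. A cell counted as Tcf7-negative may have held Tcf7 transcripts that were not captured, and Tcf7 itself is therefore given as a description. Its level in Tcf7-positive cells was 2.55, 4.11, 3.52 and 3.92.

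Over the kept cells, the 4 tumors had 8613, 7786, 7248 and 4771 cells and between 27686362 and 56349195 UMIs, with a median of 3718 to 4668 per cell. Csf1r in C1q-high macrophages was 1.67, 2.30, 1.43 and 1.55 per 10000, with 552, 473, 112 and 66 UMIs, so both Lyve1CreCsf1rfl/fl tumors were below both Csf1rfl/fl tumors, and Csf1r was detected in all 4. Scrublet, which scores likely doublets, called 39.2% of the Tcf7-positive cells of Csf1rfl/fl replicate 1 and 17.7% to 19.8% of those of the other tumors. These cells were kept in. Markers of other cell types were not at 0 in the Tcf7-positive cells. The summed level of the macrophage list was 23.6, 16.2, 10.2 and 18.2 per 10000, and that of the B cell list was 0.81 to 2.80. The NK list was at 21.2 to 34.2, against 129 to 195 in NK cells, which were chosen on Ncr1 of this list. The dendritic cell list was at 33.0 to 51.7, the neutrophil list at 26.7 to 50.3, the gamma delta and innate-like list at 12.6 to 21.9 and the tumor and stromal list at 0.38 to 1.71.

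Tcf7-positive cells made up 232 of 8613, 305 of 7786, 318 of 7248 and 497 of 4771 kept cells in the 4 tumors. These shares were 2.69%, 3.92%, 4.39% and 10.4%, with exact 95% binomial intervals of 2.36% to 3.06%, 3.5% to 4.37%, 3.93% to 4.88% and 9.56% to 11.3%, which cover counting error only. Both Lyve1CreCsf1rfl/fl tumors were above both Csf1rfl/fl tumors, and replicate 2 stood far above the rest. The means were 7.40% ± 4.26 (SD, n = 2) in Lyve1CreCsf1rfl/fl and 3.31% ± 0.865 (SD, n = 2) in Csf1rfl/fl tumors, a difference of 4.10 percentage points (exact permutation test, two-sided, p = 0.333, the smallest p that 2 against 2 tumors allow). Within runs 1 and 2 the differences were 1.69 and 6.50 points. The difference was 1.08 points without Lyve1CreCsf1rfl/fl replicate 2 and 7.11 without replicate 1, and 3.48 and 4.71 without Csf1rfl/fl replicates 1 and 2. The genotypes overlapped when at least 2 Tcf7 UMIs were required (1.10%, 2.12%, 2.01% and 6.67%) and when cells were thinned to 2000 UMIs (1.72%, 2.93%, 2.91% and 7.62%), each with p = 0.667 by the same exact permutation test. The summed level of the B cell list in the Tcf7-positive cells was also highest in Lyve1CreCsf1rfl/fl replicate 2, at 2.80 UMIs per 10000 against 0.814 to 1.42 in the other tumors. Whether T cells of blood or lymph node were isolated with this tumor was not tested.

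Among T cells with no Trdc or Foxp3 UMI, the Tcf7-positive shares were 13.1%, 24.8%, 23.3% and 40.3%. Here the genotypes overlapped, since Csf1rfl/fl replicate 2 lay above Lyve1CreCsf1rfl/fl replicate 1, and the means were 31.8% ± 12 and 18.9% ± 8.28 (SD, n = 2 each, exact permutation test, two-sided, p = 0.667). The differences within runs were 10.3 and 15.5 points. The difference of the means was 12.9 points, which became 7.05 and 18.8 without Csf1rfl/fl replicates 1 and 2 and 21.4 and 4.40 without Lyve1CreCsf1rfl/fl replicates 1 and 2. With each cell thinned to 2000 UMIs and shallower cells left out, which took out 11, 27, 44 and 33 Tcf7-positive cells, the means of the 2 shares were 5.27% against 2.32% of all cells and 20.3% against 11.7% of T cells. The authors had taken out clusters specific to 1 tumor, Lyve1CreCsf1rfl/fl replicate 2. They treated these clusters as potential contaminants and described them as lymphocytes with high ribosomal gene expression. Over all barcodes, kept or removed, with 1 hashtag at least 3 times the other and under 5% mitochondrial UMIs, the shares of all cells were 3.17%, 5.05%, 4.14% and 21.0%, so the genotypes overlapped (exact permutation test, two-sided, p = 0.667). The means were then 12.6% ± 11.9 against 4.11% ± 1.33 (SD, n = 2 each), with differences of 0.969 and 15.9 points within runs 1 and 2. Among T cells they were 43.2% against 22.7%, with differences of 9.90 and 31.1 points. Lyve1CreCsf1rfl/fl replicate 2 gave 1766 of the Tcf7-positive cells put back, and the other tumors 67 to 167 each.

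**Figure D1:**
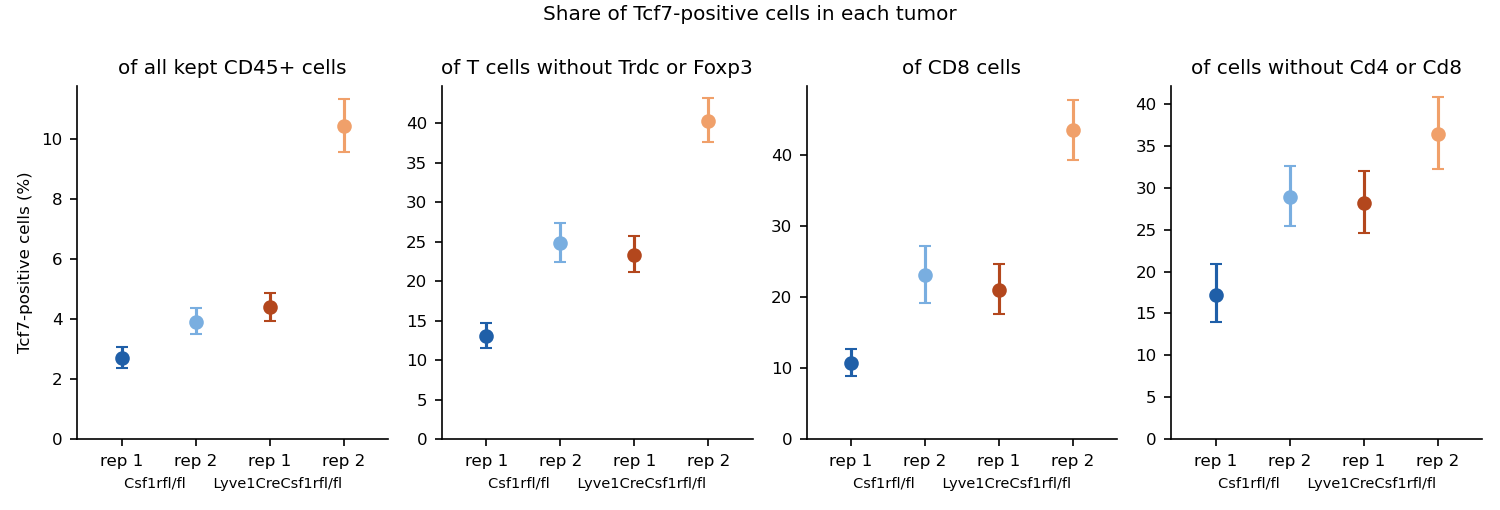
Share of Tcf7-positive cells in percent (y axis) in each of the 4 tumors (x axis), among all kept CD45+ cells, among T cells without Trdc or Foxp3 UMIs, among CD8 cells, and among T cells without Cd4 or Cd8 UMIs. Bars are exact 95% intervals for counting error, and Lyve1CreCsf1rfl/fl replicate 2 is highest in each panel, at 10.4% of kept cells and 40.3% of T cells.

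By coreceptor, the Tcf7-positive cells of the 4 tumors held 114, 102, 116 and 235 CD8 cells (a UMI of Cd8a or Cd8b1 and none of Cd4), 24, 17, 28 and 61 CD4 cells, 83, 183, 169 and 186 cells with neither and 11, 3, 5 and 15 with both. CD8 cells thus made up 49.1%, 33.4%, 36.5% and 47.3%, and cells with neither 35.8%, 60%, 53.1% and 37.4%. In both shares the difference between genotypes turned sign between the runs, from -12.7 to 13.8 points for CD8 and from 17.4 to -22.6 points for neither (exact permutation test, two-sided, p = 1 for each). Turned around, Tcf7-positive cells were 10.6%, 23.0%, 20.9% and 43.4% of CD8 cells and 13.2%, 12.5%, 15.1% and 40.4% of CD4 cells. Lyve1CreCsf1rfl/fl replicate 2 was highest in both lineages.

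The CD8 cells were compared first by Tcf7 state, on UMIs summed per tumor with the tumor as a block. Of 8851 genes tested, 657 were higher and 538 lower in Tcf7-positive CD8 cells (7.42% and 6.08%, 13.5% in all). Genes of naive and central memory T cells, of quiescence and of exit from tissue rose together. Of the 20 genes of this list, all measured and all past the filter on low counts, 17 rose and 1, Cd27, fell, and the median log2 difference was 1.25, against -0.00 over all genes. Without Lyve1CreCsf1rfl/fl replicate 2, 16 rose and 1 fell, and without the cells called doublets 16 of 19 rose and none of the 19 fell.

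Lef1 (chromosome 3, 131110471 to 131224356), the partner of TCF-1 in the same family, had levels of 0.478, 0.360, 0.408 and 1.15 in Tcf7-positive and 0.0303, 0.0698, 0.0924 and 0.159 in Tcf7-negative CD8 cells. The classes did not overlap, and the difference was 2.95 ± 0.24 (log2 ± SE, adjusted p = 1.12e-06). Within the Tcf7-positive cells Lyve1CreCsf1rfl/fl replicate 2 stood above the other 3 tumors. S1pr1, the receptor that lets T cells leave tissue along sphingosine-1-phosphate, was 0.268, 0.869, 0.544 and 1.36 against 0.0695, 0.145, 0.195 and 0.287 (2.15 ± 0.18, adjusted p = 1.13e-06). Its highest Tcf7-negative tumor lay just above the lowest Tcf7-positive one, but within every tumor the Tcf7-positive cells were higher.

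Ccr7, the chemokine receptor for entry into lymph nodes, was 2.17, 3.03, 2.63 and 2.25 in Tcf7-positive against 0.467, 0.880, 0.646 and 0.879 in Tcf7-negative CD8 cells (1.89 ± 0.12, adjusted p = 7.91e-08). The classes did not overlap. Ccr7 is also a gene of mature dendritic cells, and their gene Fscn1 rose in the same CD8 cells, as given below. The part of dendritic cells in the Ccr7 level was not tested. Dapl1, which marks naive CD8+ T cells, was 1.18, 1.14, 0.771 and 1.50 against 0.148, 0.215, 0.246 and 0.482 (2.23 ± 0.19). The receptor of interleukin-7, Il7r, rose by 1.32 ± 0.12, Klf2, the factor that drives S1pr1, by 1.28 ± 0.10, and the chromatin organizer Satb1 by 1.95 ± 0.13, each in 4 of 4 tumors.

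Igfbp4, also of the naive list, gave the largest rise by the rule on named genes, but its values were uneven. Its levels were 0.117, 0.105, 1.68 and 0.408 in Tcf7-positive against 0.0357, 0.0268, 0.0257 and 0.0488 in Tcf7-negative CD8 cells (3.6 ± 0.45). In Lyve1CreCsf1rfl/fl replicate 1, all Tcf7-positive cells together held 222 Igfbp4 UMIs in 9 cells, 106 of them in 1 cell, and 4 UMIs remained without the cells called doublets. In Lyve1CreCsf1rfl/fl replicate 2, 261 UMIs lay in 75 cells.

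**Figure D2:**
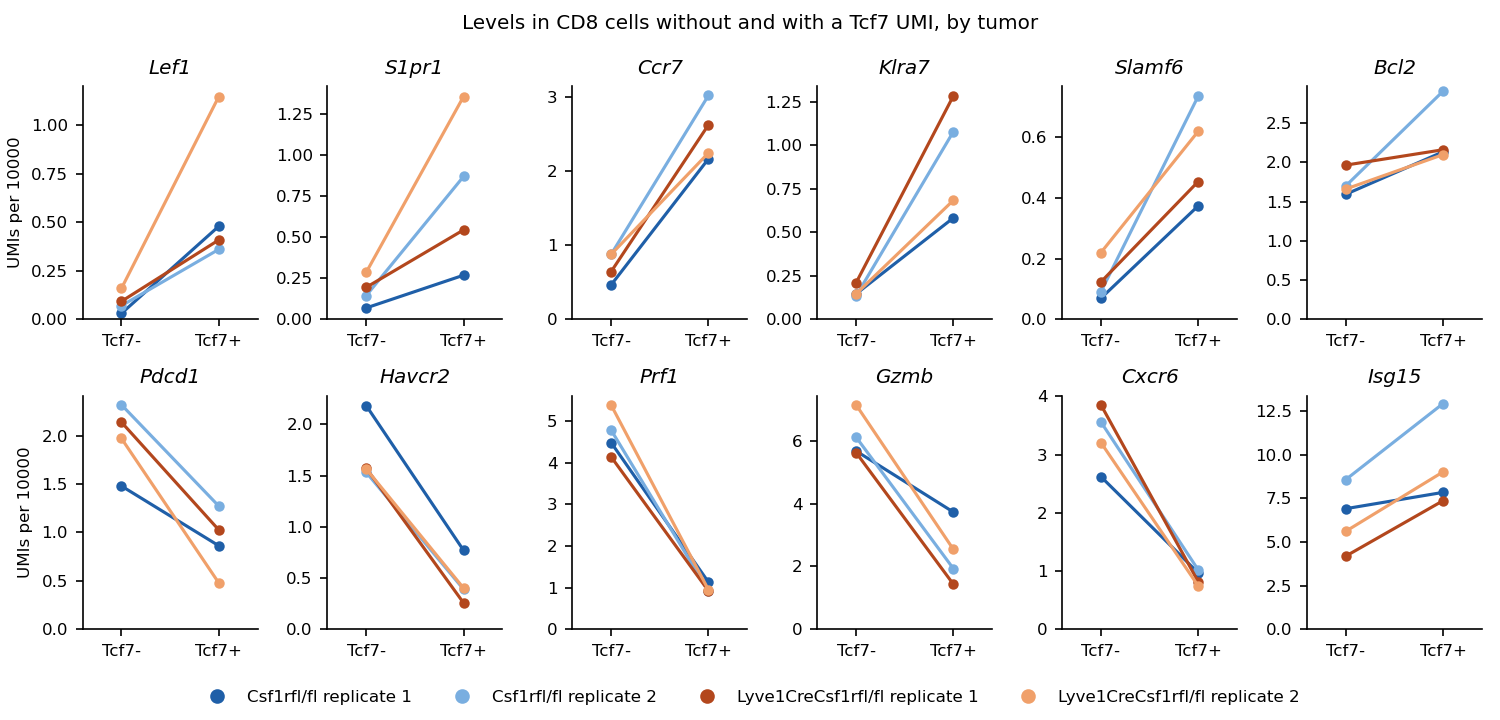
UMIs per 10000 (y axis) of 12 genes in Tcf7-negative and Tcf7-positive CD8 cells (x axis), with 1 line per tumor. Lef1, S1pr1, Ccr7, Klra7, Slamf6, Bcl2 and Isg15 rise along every line, and Pdcd1, Havcr2, Prf1, Gzmb and Cxcr6 fall along every line.

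The list of progenitor exhausted (stem-like) genes was split. Of 13 tested, 8 rose and 2 fell, with a median of 0.82. Slamf6, the surface receptor used to sort stem-like cells, was 0.373, 0.734, 0.453 and 0.619 in Tcf7-positive against 0.0695, 0.0913, 0.123 and 0.220 in Tcf7-negative CD8 cells (2.18 ± 0.22, adjusted p = 8e-06). Id3, an inhibitor of E proteins that stem-like cells keep, rose by 2.15 ± 0.19, the factor Myb by 1.4 ± 0.23, the chemokine receptor Cxcr3 by 0.96 ± 0.17 and the factor Eomes by 0.89 ± 0.15. Xcl1, a chemokine for cross-presenting dendritic cells, was 5.27, 4.24, 4.56 and 6.32 against 1.88, 1.20, 3.34 and 7.09 (0.89 ± 0.22, adjusted p = 0.0117), so that it was higher in 3 of 4 tumors and lower in Lyve1CreCsf1rfl/fl replicate 2.

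The 2 genes of this list that fell were Pdcd1 and Tox. Pdcd1, which encodes the inhibitory receptor PD-1, was 0.863, 1.27, 1.03 and 0.480 against 1.48, 2.32, 2.14 and 1.97 (-1.13 ± 0.15, adjusted p = 0.00014). Its level was 0.0108 to 0.0475 in neutrophils and 0.00604 to 0.0234 in macrophages. Tox, the factor that sets the exhausted state, was 1.43, 1.27, 1.01 and 0.941 against 2.79, 2.25, 1.92 and 1.89 (-0.88 ± 0.09). The classes did not overlap for either gene.

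Inhibitory receptors and genes of terminal exhaustion fell, with 10 of 16 lower and 1, the early response gene Nr4a1, higher (median -1.05). Havcr2, the TIM-3 receptor of terminally exhausted cells, was 0.770, 0.390, 0.257 and 0.401 against 2.18, 1.53, 1.57 and 1.56 (-1.87 ± 0.14, adjusted p = 4.57e-07). Lag3 fell by 1.79 ± 0.14 on the log2 scale, the costimulatory receptor Tnfrsf9 by 1.28 ± 0.11 and the ectonucleotidase Entpd1 by 1.03 ± 0.16. Without Lyve1CreCsf1rfl/fl replicate 2 the list had 10 lower and 2 higher, and without the cells called doublets 10 lower and 1 higher.

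Cytotoxic effector genes were lower, with 14 of 22 fallen and 1 risen (Zeb2, a factor of effector cells, 0.35 ± 0.09, and 0.08 with adjusted p = 0.831 without the cells called doublets), and a median of -0.86. Prf1, the pore-forming perforin, was 1.13, 0.914, 0.922 and 0.948 in Tcf7-positive against 4.48, 4.78, 4.14 and 5.38 in Tcf7-negative CD8 cells (-2.22 ± 0.09, adjusted p = 1.14e-09). Its spread over the 4 tumors was small beside the gap between the classes. Gzmf, a granzyme of strongly activated cells, was 0.0933, 0, 0 and 0.0066 against 1.56, 2.44, 1.13 and 2.59 (-6.28 ± 0.36, adjusted p = 3.93e-08). With levels of 0 among the Tcf7-positive sums, its fitted size depends on the prior count. The log2 differences within tumors ran from -3.92 in Csf1rfl/fl replicate 1 to -7.93 in Csf1rfl/fl replicate 2. Gzmb, the main granzyme of killer cells, fell less, at 3.73, 1.93, 1.44 and 2.55 against 5.68, 6.12, 5.63 and 7.15 (-1.33 ± 0.15, adjusted p = 1.94e-05).

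In neutrophils and macrophages Gzmb was at 0.176 to 0.565 and 0.117 to 0.627 per 10000. Scrublet called 17.9% to 42.1% of the Tcf7-positive CD8 cells doublets, and without the cells so called the difference in Gzmb was -1.65 (adjusted p = 4.95e-05). Nkg7, a granule protein, was 9.22, 6.56, 7.83 and 5.70 against 19.6, 15.1, 20 and 14.3 (-1.19 ± 0.06, adjusted p = 7.5e-09). The chemokines Ccl3 and Ccl4 fell by 1.02 ± 0.09 and 1.08 ± 0.12 on the log2 scale, the factors Prdm1, Id2 and Tbx21 by 1.53 ± 0.18, 0.81 ± 0.10 and 0.79 ± 0.16, and the fractalkine receptor Cx3cr1 by 1.53 ± 0.18. Gzma did not pass the test (-0.15 ± 0.19), was 0.19 without Lyve1CreCsf1rfl/fl replicate 1, and was -1.27 and called among cells with 2000 to 6000 UMIs (adjusted p = 0.00362). Without Lyve1CreCsf1rfl/fl replicate 2, 14 of the list were lower and 2 higher, and without the cells called doublets 15 were lower and none of the 22 tested was higher.

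The other genes with the largest falls by the rule were Ptpn5, Adgrg1, Rgs8, Ltf, Serpinb9b, Gldc, Setbp1 and Tmem163. Each fell by 2.01 to 2.84 on the log2 scale, and in 4 of 4 tumors as the rule requires. Adgrg1 is an adhesion receptor of cytotoxic lymphocytes, and Serpinb9b belongs to the family of granzyme inhibitors. Adgrg1 was 0.128, 0.105, 0 and 0.0263 against 0.433, 0.413, 0.487 and 0.385. Besides Lef1, Igfbp4, Nsg2, Dapl1, S1pr1, Slamf6, Id3 and the Ly49 genes, the largest rises included Mmp25, a membrane protease, at 0.373, 0.794, 0.484 and 0.224 against 0.0642, 0.177, 0.139 and 0.0794 (2.11 ± 0.20).

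**Figure D3:**
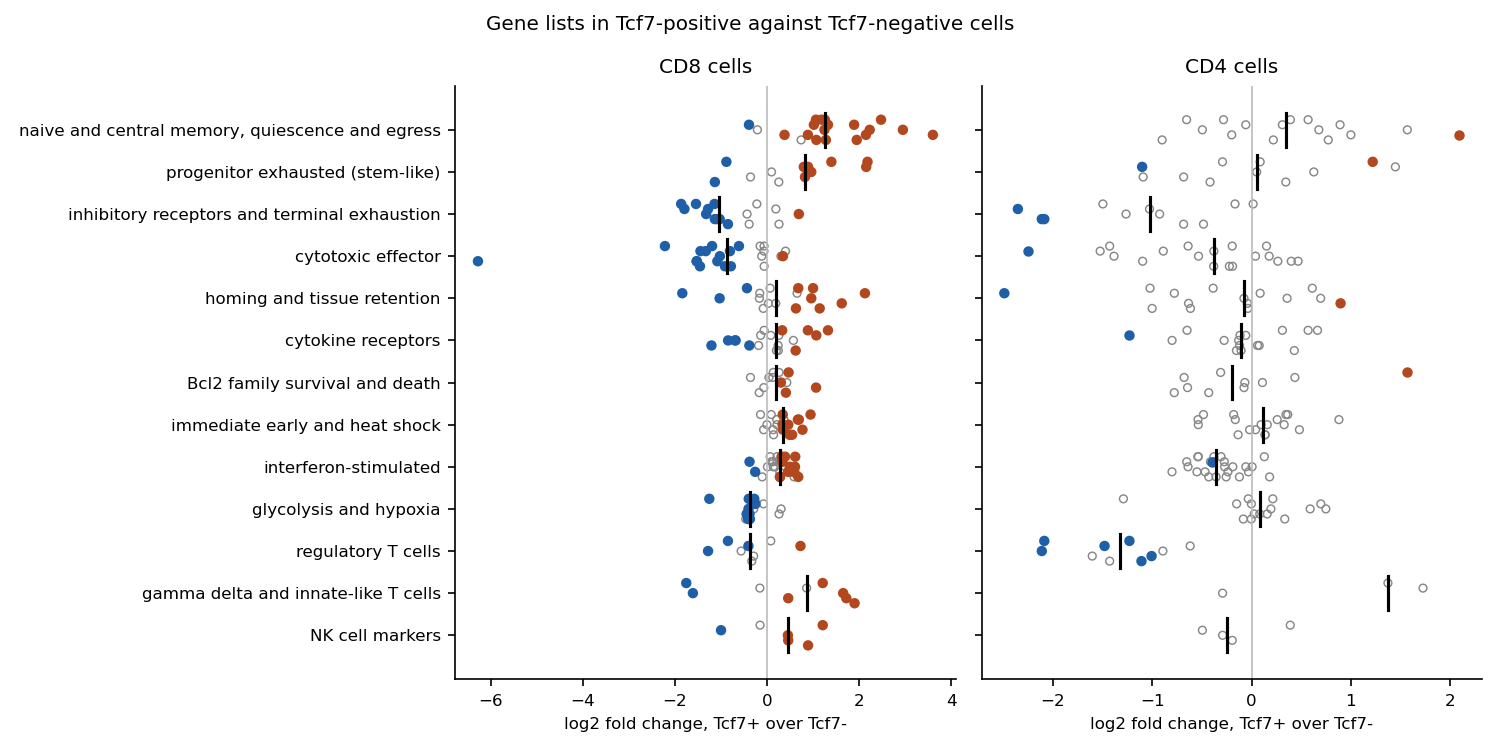
Log2 difference of Tcf7-positive to Tcf7-negative cells (x axis) for each tested gene of the lists (y axis), in CD8 cells and CD4 cells. Red and blue points passed the test as higher and lower, open grey points did not pass, and a black bar is the list's median, at 1.25 for the naive list and -0.86 for the cytotoxic list in CD8 cells.

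Of the 5 Ly49 genes tested in CD8 cells, a family looked up after values were seen, Klra7, Klra1 and Klra6 rose and Klra3 (0.22 ± 0.27) and Klra2 (0.50 ± 0.22) did not pass. These genes are close copies of each other, so reads that match several may not have been counted and each value is uncertain. Klra7 (chromosome 6, 130218605 to 130233322) was 0.583, 1.08, 1.28 and 0.684 in Tcf7-positive against 0.146, 0.134, 0.210 and 0.147 in Tcf7-negative CD8 cells (2.47 ± 0.17, adjusted p = 2.09e-07). Klra1, which encodes Ly49A, was 0.187, 0.555, 0.514 and 0.421 against 0.0535, 0.0483, 0.0513 and 0.0427 (2.93 ± 0.28, adjusted p = 5.31e-06). Neither gene overlapped between the classes in any tumor. Over all T cells of both states, Klra6 was 0.316, 0.465, 0.396 and 0.235 against 0.0428, 0.0719, 0.0888 and 0.0550 (2.50 ± 0.17, adjusted p = 1.51e-05), the largest rise by the rule in that comparison, where Klra4 (0.85 ± 0.25) and Klra8 (0.60 ± 0.38) of the NK list did not pass and in which 5.29% of 10482 genes were higher and 5.0% lower (10.3% in all).

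Bcl2, Sidt1 and Tnfsf8 were given as markers of these cells beside Tcf7 with results of these data known, so their values are no independent support. Bcl2, which blocks the mitochondrial death pathway, was 2.13, 2.91, 2.16 and 2.10 against 1.59, 1.70, 1.97 and 1.66 in CD8 cells (0.47 ± 0.10, adjusted p = 0.00484), and without the tumor as a block the adjusted p was 0.124. Sidt1, a transmembrane protein linked to RNA transport, was 0.420, 0.734, 0.499 and 0.83 against 0.128, 0.193, 0.221 and 0.317 (1.59 ± 0.16). Tnfsf8, the ligand of CD30, was 0.537, 0.749, 0.363 and 0.744 against 0.2, 0.215, 0.292 and 0.293 (1.32 ± 0.19). For all 3 genes the classes did not overlap.

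Of the 12 tested genes of the Bcl2 family, 4 rose and none of the 12 fell in CD8 cells (Bcl2a1a 1.06 ± 0.12, Bcl2, Bcl2a1b 0.41 ± 0.09 and Mcl1 0.30 ± 0.07, all inhibitors of cell death, median 0.20). This count depended on which cells were summed, and Bcl2a1b was 0.14 (adjusted p = 0.393) without the cells called doublets and turned to -0.48 among cells with 2000 to 6000 UMIs. Without the cells called doublets 3 rose and 1 fell, and among cells with 2000 to 6000 UMIs 1 rose and 3 fell of 11. Of the 7 tested TCF/LEF factors, partners and feedback genes other than Tcf7, Lef1 and the corepressor gene Tle4 (0.41 ± 0.11) rose. Over all T cells Axin2, a feedback gene of Wnt signaling, was 0.0252, 0.0784, 0.100 and 0.0870 against 0.0095, 0.0148, 0.0524 and 0.0468 (1.31 ± 0.32, adjusted p = 0.0233).

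Receptors for cytokines and for homing moved in both directions in CD8 cells. Of 19 cytokine receptor genes, 5 rose (Il7r, Il6st, Il6ra, Il4ra, Ifngr1) and 5 fell (Il12rb1, Il2rb, Il18rap, Il10ra, Tgfbr2). Tgfbr2 did not pass without the cells called doublets (adjusted p = 0.154). Il2rb, a chain of the receptors for interleukin-2 and interleukin-15, was 2.45, 3.97, 2.37 and 2.88 against 3.96, 6.76, 5.30 and 5.68 (-0.85 ± 0.08). Of 17 homing genes, 7 rose and 3 fell. The chemokine receptor Cxcr6, which holds effector and exhausted cells near dendritic cells, was 0.968, 1.02, 0.816 and 0.744 against 2.62, 3.56, 3.85 and 3.21 (-1.84 ± 0.11, adjusted p = 7.78e-08), while Cxcr4, the receptor of CXCL12, rose by 1.62 ± 0.14, the integrin chain Itgb7 by 1.0 ± 0.13 and the retention marker Cd69 by 0.68 ± 0.09.

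Genes of interferon response and of immediate early response were higher in Tcf7-positive CD8 cells. Of 25 interferon-stimulated genes, 12 rose and 2 (Ifi27l2a and Ly6a) fell, with a median of 0.28. Isg15, a ubiquitin-like protein induced by interferon, was 7.85, 12.9, 7.37 and 9.03 against 6.92, 8.59, 4.20 and 5.62 (0.61 ± 0.09, adjusted p = 0.000218). The levels of the tumors overlapped between the classes, although the Tcf7-positive cells were higher within each tumor. Without the tumor as a block 1 of the 25 rose. Over all T cells of both states none of the 25 rose and 3 fell. Of 19 immediate early and heat shock genes 10 rose, with Fos at 3.80, 2.92, 2.72 and 4.21 against 2.02, 1.91, 1.31 and 2.11 (0.94 ± 0.09), and these genes are also known to be induced while tissue is dissociated.

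Glycolytic genes were lower, with 9 of 15 fallen and none of the 15 risen (median -0.37). The glucose transporter gene Slc2a3 was 0.210, 0.285, 0.272 and 0.243 against 0.549, 0.628, 0.595 and 0.678 (-1.25 ± 0.15), and Ldha, lactate dehydrogenase, was 3.77, 3.70, 4.29 and 3.67 against 4.68, 5.29, 5.38 and 5.66 (-0.40 ± 0.07). The count was 4 of 15 without Lyve1CreCsf1rfl/fl replicate 2, and without the tumor as a block it was 1. Of 13 cell cycle genes other than the Mki67 and Top2a of the gate, 8 fell and 1 rose, and without Lyve1CreCsf1rfl/fl replicate 2 or without the cells called doublets 5 and 3 fell. Cells with both gate genes had been left out of both classes.

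Markers of other cells moved with the Tcf7 state in CD8 cells, and their part in the results above was not tested. Of 7 tested dendritic cell genes 4 rose, with Fscn1, an actin bundler of mature dendritic cells, at 1.64, 2.28, 2.61 and 1.19 against 0.451, 1.22, 0.493 and 0.403 (1.71 ± 0.17), and with the summed list at 31.7, 50.7, 43.3 and 45.7 against 34.4, 33.5, 20.8 and 32.1 per 10000. Clec9a, which defines cross-presenting dendritic cells, was at 0 in the Tcf7-positive CD8 cells of both Csf1rfl/fl tumors and at 0.0151 and 0.0461 in the others. Without the cells called doublets 4 of 6 rose, Fscn1 by 2.80 and Ccr7 by 2.23 on the log2 scale. The NK list had 4 of 6 higher and 1 lower, with a sum of 16.9 to 31.6 against 15.5 to 28.4. The gamma delta and innate-like list had 5 of 9 higher (Tmem176b, Tmem176a, Klrb1f, Klrb1c and Fcer1g, the last 2 also on the NK list) and 2 lower (Tcrg-C2 and Trgv2), with a median of 0.86 and a sum of 10.2 to 20.2 against 8.91 to 16.7. The alpha beta receptor genes Trac and Trbc2 fell by 0.44 ± 0.08 and 0.48 ± 0.07 on the log2 scale, while Trbc1 rose. Of the 10 tested genes of the T cell receptor and coreceptor list, 5 fell and 1 rose.

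In the same CD8 cells the macrophage list had 1 of 9 genes higher (Ctss), with a sum of 9.05 to 22.6 against 11.5 to 20.4, and the neutrophil list had 1 of 8 higher (Il1b, which did not pass without the cells called doublets, adjusted p = 0.239), with a sum of 17.4 to 51.4 against 12 to 42.4. Ighm, the single B cell gene tested, rose (1.04 ± 0.17), as did Pecam1 of the stromal list (1.13 ± 0.24), a gene that naive T cells also express. The median Tcf7-positive CD8 cell had 4500.5 to 6070.5 UMIs, against 3736 to 4644 in Tcf7-negative CD8 cells. Among cells with 2000 to 6000 UMIs, 15 of 17 naive genes rose and none of the 17 fell, and 16 of 22 cytotoxic genes fell and 1 rose.

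CD4 cells were fewer, with 17 to 61 Tcf7-positive cells per tumor, and gave fewer calls. The Tcf7-positive CD4 sums held 111953, 96395, 134131 and 376447 UMIs in all, so a level near 1 rests on few UMIs of the gene. Of 4909 genes 47 were higher and 32 lower in Tcf7-positive cells (0.957% and 0.652%, 1.61% in all). A simulation of this comparison changed only genes with a mean log2 CPM above 4. It recovered 43% of genes changed by 1 and 85% of those changed by 2 on the log2 scale, with 9 false calls. The regulatory T cell list was lower although cells with Foxp3 UMIs had been left out, with 6 of 10 genes fallen and none of the 10 risen (median -1.33, against -0.00 over all genes). Without Lyve1CreCsf1rfl/fl replicate 2, 3 of 10 fell, and 4 of 10 without Csf1rfl/fl replicate 2. The count was 3 of 10 without the tumor as a block, 0 of 10 with at least 2 Tcf7 UMIs per cell (median -1.13) and 5 of 10 without the cells called doublets. Ikzf2, the Helios factor of regulatory T cells, was 3.04, 6.02, 2.76 and 2.23 in Tcf7-positive against 8.65, 11.0, 8.63 and 10.4 in Tcf7-negative CD4 cells (-1.48 ± 0.20, adjusted p = 0.00219), and 9.14 to 16.8 in Foxp3-positive cells. Ctla4, an inhibitory receptor that regulatory T cells use, was 0.983, 0.415, 1.34 and 0.398 against 3.35, 3.58, 2.60 and 3.66 (-2.09 ± 0.32, adjusted p = 0.00507).

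Il2ra, the high-affinity chain of the interleukin-2 receptor, fell by 1.23 ± 0.26 on the log2 scale in Tcf7-positive CD4 cells, Tnfrsf4 by 1.11 ± 0.20 and Tnfrsf18 by 1.01 ± 0.21. The summed level of the regulatory T cell list was 9.22 to 20.1 in Tcf7-positive and 36.6 to 40.1 in Tcf7-negative CD4 cells. The median Tcf7-positive CD4 cell had 3763.5 to 5626 UMIs across the tumors, against 2744 to 3311 in Tcf7-negative CD4 cells. How many Tcf7-negative CD4 cells were regulatory T cells without a captured Foxp3 UMI was not tested. Ccl1, a chemokine for CCR8, fell most, from 0.830, 1.62, 3.68 and 0.689 to 0.0893, 0, 0.0746 and 0 (-5.38 ± 0.52, adjusted p = 6.52e-05). With levels of 0 among the Tcf7-positive sums, its fitted size depends on the prior count. Over all Tcf7-positive cells, of any coreceptor class, Ccl1 had 346, 95, 81 and 257 UMIs in the 4 tumors. Of these, 317, 94, 37 and 173 lay in 1 cell, so its level can turn on single cells. How many Tcf7-negative CD4 cells held Ccl1 was not counted. Itgae, the integrin CD103, was 0.179, 0.104, 0.224 and 0.106 against 0.676, 0.660, 0.852 and 1.06 (-2.49 ± 0.40), Prdm1 fell by 2.25 ± 0.37 and Lag3 by 2.35 ± 0.45.

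S1pr1 was the gene of the naive list that rose in CD4 cells, at 0.804, 1.97, 0.969 and 1.70 in Tcf7-positive against 0.184, 0.313, 0.320 and 0.503 in Tcf7-negative cells (2.09 ± 0.28, adjusted p = 0.00219), 1 of 16 tested. Slamf6 was 1.07, 1.04, 1.04 and 1.06 in Tcf7-positive against 0.369, 0.365, 0.350 and 0.821 in Tcf7-negative CD4 cells (1.22 ± 0.29, adjusted p = 0.0498). Bcl2 was 2.05, 0.934, 0.447 and 1.06 against 0.569, 0.174, 0.426 and 0.371 (1.57 ± 0.33, adjusted p = 0.0232). The gap in Bcl2 was small in Lyve1CreCsf1rfl/fl replicate 1, and the adjusted p rose to between 0.0747 and 0.119 without any of the other 3 tumors. Other rises by the rule were Scin, Fscn1, Cd9, Pdcd4, Itgb1, Gas5 and Emb, by 0.88 to 2.28. Sidt1 (0.90 ± 0.45) and Tnfsf8 (0.83 ± 0.25) did not pass the test in CD4 cells. Without the cells called doublets, 11 of 24 named CD4 genes that could be fitted kept the call, among them Ikzf2, Ctla4, Ccl1, Itgae, Prdm1, Tnfrsf4, S1pr1 and Bcl2. The other 13 kept their direction with adjusted p-values of 0.0710 (Itgb8) to 0.474 (Fscn1), among them Slamf6 (0.106), Il2ra (0.124), Tnfrsf18 (0.106), Cd9, Pdcd4, Itgb1, Gas5 and Emb. Scin and Lag3 could not be fitted there. With at least 2 Tcf7 UMIs per cell, 4 of 26 named CD4 genes kept the call (S1pr1, Ccl1, Maf and Scin) and 22 lost it. Without the tumor as a block 10 of 26 kept it, among them S1pr1, Ccl1, Itgae, Prdm1, Ctla4 and Ikzf2. All 26 kept their direction under both settings, but those named by size of change had been picked for moving the same way in every tumor.

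The difference by Tcf7 state was tested for a dependence on lineage, and 24 of 7367 genes passed (0.326%), 20 with the larger value in CD8 cells (0.271%) and 4 with the larger value in CD4 cells (0.0543%). Ikzf2 differed in sign, with 0.73 in CD8 and -1.48 in CD4 cells (difference 2.28 ± 0.32, adjusted p = 0.00155). Itgb7 was higher with Tcf7 in CD8 cells (1.0) and had -1.0 in CD4 cells (2.16 ± 0.28, adjusted p = 0.000927). Maf, Foxo1, Satb1 and Myb also differed in the same direction. S1pr1 had 2.15 in CD8 and 2.09 in CD4 cells, and its difference of 0.19 ± 0.32 did not pass.

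Cells with neither a Cd4 nor a Cd8 UMI numbered 83 to 186 per tumor among the Tcf7-positive cells and were shallower, with medians of 3327 to 4247 UMIs. How many of them were CD4 or CD8 cells whose coreceptor was not captured was not tested. The mean share of cells with neither depended on depth. It was 47.9% in Csf1rfl/fl and 45.3% in Lyve1CreCsf1rfl/fl tumors, and 68.3% and 59.0% with each cell thinned to 2000 UMIs. Their levels are given beside those of the other classes with no test. Trac was 2.52, 2.34, 2.39 and 2.34, against 3.41 to 3.90 in Tcf7-positive CD8 cells and 0.0975 to 0.187 in NK cells. The NK cells were chosen to hold no Cd3 UMI, so their low Trac level is not independent of that choice. Il7r was 2.32, 3.07, 3.44 and 3.07, against 0.187 to 0.374 in NK cells.

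Some receptors of NK cells, chosen after their values were seen, are given in the same classes. Ncr1, the NKp46 receptor, was 0.656, 0.834, 0.682 and 0.638, against 0.0599 to 0.224 in Tcf7-positive CD8 cells. It was 3.90 to 4.63 in NK cells, a level set by their choice on an Ncr1 UMI. Klrb1c, which encodes NK1.1, was 1.35, 1.24, 1.19 and 0.823, against 0.165 to 0.360 in Tcf7-positive CD8 cells and 4.31 to 5.32 in NK cells. The summed NK list was 22.8 to 40.7 in the cells with neither and 16.9 to 31.6 in Tcf7-positive CD8 cells, so these ranges overlapped. Klra7 was 2.03, 3.05, 2.87 and 2.01, against 0.583 to 1.28 in CD8 and 3.6 to 4.92 in NK cells. Klra6 was 0.677, 0.486, 0.401 and 0.388 in the cells with neither, 0.191 to 0.510 in Tcf7-positive CD8 cells and 0.0561 to 0.111 in NK cells.

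Genes of gamma delta and innate-like T cells were also detected, and Tcrg-C4 and Zbtb16 are given of the 17 on the list. Over all T cells by Tcf7 state, 11 genes of this list were tested. Of these, 6 rose, with Tcrg-C4 among them, and 2 (Trgv2 and Tcrg-C2) fell. Tcrg-C4, a gamma chain constant gene, was 0.164, 0.324, 0.294 and 0.194 in the cells with neither, 0.0658 to 0.0933 in CD8 cells and 0.297 to 1.31 in Trdc-positive cells. Zbtb16, the PLZF factor of NKT cells, was 0.185, 0.151, 0.0134 and 0.0832, and was at 0 in the Tcf7-positive CD8 cells of 3 tumors. Over all Tcf7-positive cells 17.8% held a UMI of an innate-like gene. The share in Tcf7-negative cells is not given, so this value shows no difference by Tcf7 state. Dapl1 and Pdcd1, both high in CD8 cells, were low here, at 0.104 to 0.407 and 0.0277 to 0.278.

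**Figure D4:**
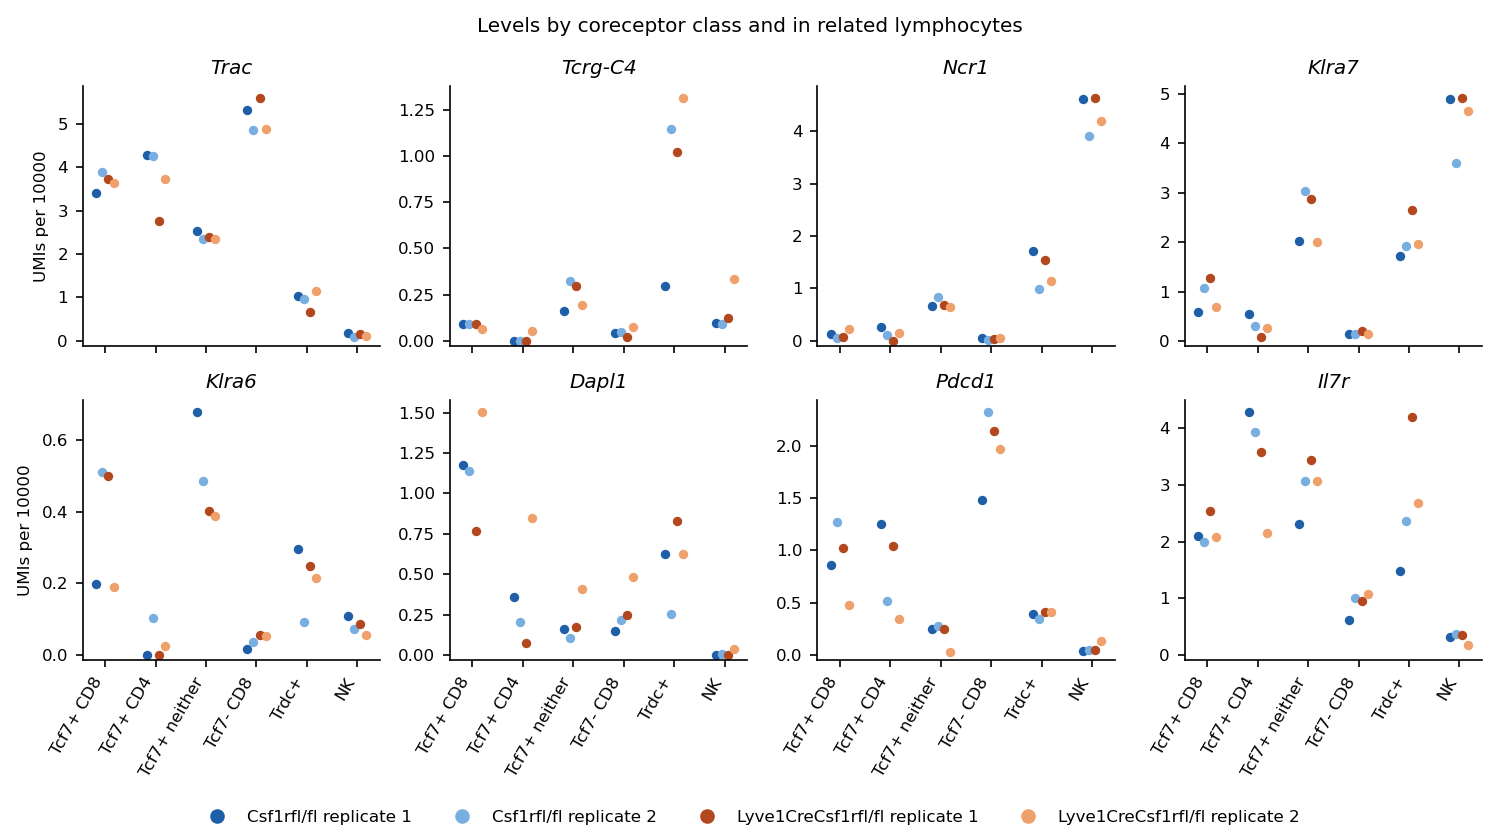
UMIs per 10000 (y axis) of 8 genes in Tcf7-positive CD8, CD4 and neither cells, Tcf7-negative CD8 cells, Trdc-positive cells and NK cells (x axis), with 1 point per tumor. NK cells were chosen on a UMI of Ncr1 and no UMI of Cd3, so their Ncr1 and Trac levels are not independent of that choice. Cells with neither coreceptor lie between CD8 and NK cells for Klra7. The highest Klra6 value plotted, 0.677, is in Tcf7-positive cells with neither coreceptor.

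Between the genotypes, 0 of 9200 genes tested in the Tcf7-positive cells passed the threshold (0%), with 215 at an unadjusted p under 0.05. DESeq2 called 5, and the fit with the run as a block, which pairs the tumors, called 2, both higher in Lyve1CreCsf1rfl/fl cells. Since fewer cells of a kind and less RNA per cell are not told apart in such sums, each value is a level over all Tcf7-positive cells of a tumor. In a simulation with this spread, 37% of genes changed by 1 and 97% of those changed by 2 on the log2 scale were recovered, with 18 false calls among the unchanged genes, so a change of 1 would often have been missed.

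The smallest p-values belonged to Igfbp4, Ms4a7, Col4a1, Ank, Col6a3, Col3a1, Slpi, Slfn4, Aebp1 and Bmyc. Igfbp4 was 0.177, 0.0784, 1.39 and 0.841 (3.13 ± 0.44, adjusted p = 0.185), with the uneven cells described above. With the run as a block, Igfbp4 (adjusted p = 0.0136) and Col3a1 (0.0164) passed, and the other 8 had adjusted p-values of 0.152 to 0.582. Col3a1, a collagen of fibroblasts, was 0 in both Csf1rfl/fl tumors and 0.955 and 0.0967 in the others, where 152 UMIs of Lyve1CreCsf1rfl/fl replicate 1 lay in 3 cells, 99 of them in 1 cell, and 0 remained without the cells called doublets. Ms4a7, a macrophage gene, was 1.17, 0.537, 0.138 and 0.271 (-2.05 ± 0.43, adjusted p = 0.576), and without the cells called doublets its difference turned to 0.53. Slpi and Slfn4, secreted and interferon-inducible myeloid products, turned in the same way, to 0.57 and 0.23.

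No list had a gene past the threshold between genotypes. Of the naive list 17 of 20 genes were above 0 (median 0.31), of the cytotoxic list 0 of 21 (-0.30) and of the interferon list 3 of 25 (-0.20), against a median of -0.01 over all genes. The macrophage and NK lists had 0 of 9 and 1 of 9 above 0 (-0.54 and -0.46). The dendritic cell list had 4 of 7 above 0 (0.17), the B cell list 2 of 2 (0.56) and the tumor and stromal list 2 of 3 (2.17). The part of these cell types in the other values was not tested. Genes of a list were read in the same 4 tumors, so 1 tumor can move many of them. These counts were not repeated without Lyve1CreCsf1rfl/fl replicate 2. S1pr1 was 0.398, 0.875, 0.703 and 1.25 (0.65 ± 0.34), and Lef1 was 0.448, 0.471, 0.408 and 1.07 (0.69 ± 0.36, adjusted p = 1). For both genes the 2 genotypes overlapped, and Lyve1CreCsf1rfl/fl replicate 2 had the highest level. Bcl2, Sidt1 and Tnfsf8 differed by -0.20 ± 0.27, 0.07 ± 0.26 and 0.38 ± 0.25.

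Whether the difference by Tcf7 state depended on the genotype was tested over 11158 genes, of which 6 passed (0.0538%), 4 of them higher (0.0358%) and 2 lower (0.0179%) in Lyve1CreCsf1rfl/fl tumors. These were Ccl1, Col3a1, Gzmd, Igfbp4, Prrx1 and Clu. Ccl1 in Tcf7-positive cells rested on few cells, since 346 UMIs of Csf1rfl/fl replicate 1 lay in 9 cells, 317 of them in 1 cell. Gzmd, a granzyme of activated cells, was 0.0189, 0.145, 0 and 0 in Tcf7-positive and 0.0690, 0.848, 1.13 and 0.539 in Tcf7-negative cells. No gene of the naive list other than Igfbp4 passed, with S1pr1 at -0.31 ± 0.23 and Lef1 at -0.34 ± 0.40.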

How the data were processed

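CD45+ cells of 4 tumors were measured by Chromium single-cell RNA sequencing. The authors aligned the reads to mm10 with Cell Ranger 6.0.1 and deposited raw UMI counts per gene and hashtag counts per cell, neither normalized. They also deposited a table of corrected values (unit score, SCTransform in Seurat), from cells under 5% mitochondrial reads, called as singlets, with clusters specific to a single tumor taken out. Here that table gave only the names of the kept cells. The annotation is not given in the sources used here.

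Each cell was assigned to the tumor with the higher of the 2 hashtag counts of its run, and 11 kept cells with a tie were left out. UMIs were summed per tumor and class and fitted with edgeR 4.0.16 (quasi-likelihood test, TMM, filterByExpr, Benjamini-Hochberg adjustment, threshold 0.05) in R 4.3.3, with the tumor as a block between Tcf7 states. An SE is the size of the log2 difference divided by the square root of the F value of this test, and not a spread over tumors. All adjusted p-values are from this test unless DESeq2 (1.42.0) is named. It was tested on simulated counts. Total kept UMIs per tumor were 27686362 to 56349195. The sums of a class were smaller, down to 96395 UMIs in Tcf7-positive CD4 cells, which limits low genes. Genes are named by size of change (the 10 largest in each direction past the threshold, moved the same way in every tumor, with a mean log2 CPM of at least 4, leaving out the genes of the gates, unnamed gene models and receptor variable segments; between genotypes, the 10 smallest p-values) and by the lists. The members and lists were chosen with earlier results of these data known. Doublets were scored by Scrublet (scanpy 1.11.5, expected share 0.2) and kept in the main fits. The replicate number is the run, so it pairs the tumors (r = 0.452 between deviations of same-run tumors over 2163 genes). Alternatives were other scaling, filters, blocks, depths, doublets and each tumor left out. Results for some genes are not reported here.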

Additional observations from a re-analysis of the deposited data

Results flagged for a closer look

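In 7 of 60 tests of named genes over 3 comparisons, which share genes and cells, 1 tumor's difference by Tcf7 state stood apart from those of the other 3 by Dixon's test, and chance flags about 1 in 20. Over all T cells, Samd3 had a log2 difference of 2.27 in Csf1rfl/fl replicate 2, against 1.22 to 1.33 in the others, and Adgrg1 had -4.60 in Lyve1CreCsf1rfl/fl replicate 1, where its Tcf7-positive level was 0. In CD8 cells Klra1 had 1.63 in Csf1rfl/fl replicate 1, against 3.03 to 3.28 in the others. In CD4 cells Lyve1CreCsf1rfl/fl replicate 2 stood apart for Fscn1, at 0.0887 against 2.52 to 2.89, for Slamf6, at 0.367, and for Tnfrsf9, at -4.41, and Csf1rfl/fl replicate 2 stood apart for Neb, at -0.694.

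The difference by Tcf7 state differed between genotypes (edgeR, interaction term) for Ccl1 (adjusted p = 0.000272), Gzmd (adjusted p = 0.0365) and Igfbp4 (adjusted p = 0.0365) among the named genes. Gzmd was at 0 in the Tcf7-positive cells of both Lyve1CreCsf1rfl/fl tumors, so its fitted size depends on the prior count.

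The difference by Tcf7 state also differed between CD8 and CD4 cells, with the larger value in CD8 cells for most of the genes that passed. The genes with the larger value in CD8 cells included, with the adjusted p, Itgb7 (0.000927), Ikzf2 (0.00155), Itgae (0.0103), Ccnd2 (0.0103), Gadd45b (0.0103), Arhgap31 (0.0103), Gpr55 (0.0112), Maf (0.0146), Nfkbia (0.0146), Foxo1 (0.0152), Hopx (0.0193), Nr3c1 (0.0204), Pakap.1 (0.0213), Satb1 (0.0305), Picalm (0.0312), Zfp36l1 (0.0347), Myb (0.0408) and P2ry10 (0.0434), all from edgeR's interaction term. Stk39 (0.0140) and Trbc2 (0.0204) had the larger value in CD4 cells.

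Among barcodes that the authors had removed, the same gates found 67, 167, 128 and 1766 Tcf7-positive cells in Csf1rfl/fl replicates 1 and 2 and Lyve1CreCsf1rfl/fl replicates 1 and 2. The reasons for removal were not told apart.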

How the results depend on the processing

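The number of genes called depended on the processing more than the direction of the named genes did. Between Tcf7 states, genes named by size of change had been picked as moving the same way in every tumor. Their kept direction is therefore no independent support. Between genotypes the count of 0 became 5 with DESeq2, 93 with no filter on low counts, 2 with the run as a replicate block, which pairs the tumors, and 1 with at least 2 Tcf7 UMIs per cell, and leaving out 1 tumor gave 5 to 55 (30, 5, 18 and 55 in the order of the tumors). There the lone tumor of a genotype is assumed to vary like the 2 of the other, so these counts rest on the spread of 1 pair and say nothing about stability. For all T cells by Tcf7 state, 1079 became 588 with DESeq2, 1787 with no filter, 270 with no replicate block for the tumor and 1638 among cells of 2000 to 6000 UMIs, and 415 to 963 with 1 tumor left out (415 without Lyve1CreCsf1rfl/fl replicate 1 and 572 without replicate 2). For CD8 cells, 1195 became 499 with DESeq2, 354 with no block, 672 with at least 2 Tcf7 UMIs, and 748 (without Lyve1CreCsf1rfl/fl replicate 1) to 933 with 1 tumor left out. For CD4 cells, 79 became 14 with DESeq2, 152 with no filter, 13 with no block, 5 with at least 2 Tcf7 UMIs, 21 without the cells called doublets and 39 among cells of 2000 to 6000 UMIs, and 18 to 87 with 1 tumor left out (43 without Csf1rfl/fl replicate 2, and 18 and 19 without Lyve1CreCsf1rfl/fl replicates 1 and 2). The causes were not tested.

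The genotype difference in the share of CD8 cells was 0.59 points and ranged from -7.26 to 8.44 with 1 tumor left out, turning to -7.26 and -4.81 without replicate 2 of either genotype. That of cells with neither coreceptor was -2.60 and ranged from -14.7 to 9.51, turning to 9.51 and 5.26 in the same 2 cases. That of cells with both was -0.57 and ranged from -2.45 to 1.31, turning to 1.31 and 0.16 without replicate 1 of either genotype and to 0.34 after thinning to 2000 UMIs. Without the cells called doublets the genotype differences of Ms4a7, Slpi and Slfn4 turned to 0.53, 0.57 and 0.23. In CD8 cells Bcl2a1b turned to -0.48 among cells of 2000 to 6000 UMIs, and Gzma, which did not pass, was 0.19 without Lyve1CreCsf1rfl/fl replicate 1 and -0.44 without replicate 2, not called in either, and -1.27 and called among cells of 2000 to 6000 UMIs.

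For named genes, 996 alternative values in CD8 cells kept direction and call and 109 lost the call, in CD4 cells 181 and 119, and over all T cells 398 and 38. Igfbp4 could not be fitted in CD8 cells without doublets, with at least 2 Tcf7 UMIs or among cells of 2000 to 6000 UMIs. Counts by list under other settings were chosen after seeing the data. Depth limits low genes: 1 Tcf7 UMI per cell made up 46.4% of the members, and CD4 cells numbered 17 to 61 per tumor.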

Other observations

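The Tcf7-positive cells among barcodes that the authors had removed are given by their levels. In the order of the tumors, their Tcf7 level was 3.16, 2.31, 2.90 and 6.81 UMIs per 10000, with median depths of 2778, 9256, 5327.5 and 2864.5 UMIs per cell. The 1766 removed cells of Lyve1CreCsf1rfl/fl replicate 2 stood apart in the summed level of the naive list, at 35.8, 44.6, 33.5 and 80.2. Of its genes, Lef1 was 1.02, 0.856, 0.742 and 3.27, and Dapl1 was 0.671, 0.861, 0.863 and 3.43. S1pr1 was 0.822, 1.22, 0.803 and 3.90. The summed cytotoxic list was lowest in the same tumor, at 54.0, 54.2, 66.2 and 23.1, with Gzmb at 1.19, 1.81, 4.11 and 0.653, and the inhibitory receptor gene Pdcd1 was 0.519, 0.542, 0.447 and 0.0937. The B cell receptor gene Cd79a was 0.498, 0.628, 0.152 and 1.29, so it was highest there too. Klra7, which rose with Tcf7 among kept cells, was 0.303, 0.596, 0.610 and 0.144.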
